A study of Mus musculus with 21 samples.

Results

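The genes described here are 50 cell cycle genes of the mouse, chosen by name for their roles and taken by symbol from an expression table of 23983 genes. All 50 were found. They comprised 8 G1 cyclins and kinases, 12 genes of S phase and replication licensing, 13 genes of G2 and mitosis, 5 inhibitors of cyclin-dependent kinases (CDKs), 8 genes of the Rb and E2F group with other cell cycle transcription factors, and the 4 genes *Wee1*, *Cdc25a*, *Cdc25b* and *Cdc25c*. The study profiled notochord progenitors, notochord and mesodermal progenitors of mouse embryos beside cells differentiated in culture, and RNA was sequenced from 9 sorted populations with 1 library each. No condition had replicates, so each difference below is a difference between single libraries.

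The 6 embryonic libraries came from pooled embryos at E8.5 (Theiler stage 12) and E9.5 (Theiler stage 16), which were grown from F1G4 mouse embryonic stem cells (C57BL/6N x SV129). The labels name tetraploid complementation as the way the embryos were made, whereas the study's text names aggregation with diploid morulae. These cells carried the reporters *T*::H2B-Venus, *Noto*::H2B-mCherry and *Foxa2*::H2B-mTurquoise on bacterial artificial chromosomes, and no unlabelled embryo was sequenced. Notochord progenitors (NotoP) were cells of the caudal end that were positive for T, Noto and Foxa2, mesodermal progenitors (MP) were caudal cells positive for T and negative for Noto and Foxa2, and trunk notochord was positive for all 3 reporters in the trunk. The 3 cultured libraries came from a stem cell line with a doxycycline-responsive *Foxa2*-IRES-EGFP transgene at *Rosa26*, *Noto*::H2B-mTurquoise, and a *T* construct that makes H2B-mCherry together with the transactivator irTA. In that line the transactivator was made where *T* was active, so that the *Foxa2* transgene depended on *T* as well as on doxycycline. All cultures received bFGF from day 1 and CHIR99021 from day 2, at 5 µM in the label of the day 3 culture. NMPdiff was sorted on day 3 as T-positive and Noto-negative, MPdiff on day 4 as T-positive and Noto-negative, and NotoPdiff on day 4 as T-positive and Noto-positive after doxycycline at 1 ng/ml. Embryonic and cultured libraries were read on different sequencers, so platform and embryo against culture cannot be told apart.

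Cells pass from G1 into DNA replication when D- and E-type cyclins with their kinases inactivate the Rb proteins and release E2F factors, which drive the genes of replication. Genes of G2 and mitosis come on later under B-Myb and FoxM1, and CDK inhibitors of the Cip/Kip and INK4 families hold the kinases in check. The notochord is fed from progenitors at the caudal end of the embryo as the axis lengthens, while the cells left behind in the trunk differentiate, and exit from the cycle is a common companion of differentiation.

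Expression was given as FPKM, the number of fragments of a gene scaled to the length of its transcript and to the depth of the library. A difference is the difference of log2(FPKM + 1), and a gene is said to rise or fall, or to be called, where that difference reached 2-fold. As background the same rule was applied to the 11922 genes with a mean of 1 FPKM or more over the 9 libraries, which took in 49 of the 50 genes, all but *Cdkn2c*. This background was not matched for level, and 45 of the 50 genes averaged 5 FPKM or more. Where groups are said not to overlap, the share of all genes that separate in the same way was not counted. Low values of genes with a single transcript were whole multiples of a step, within a tolerance of 0.05, for 90.8 to 92.5% of values, and this step gave the total of fragments to which each library had been scaled. It is used here as depth, and the study lists more mapped reads than this for each embryonic library. For E8.5 and E9.5 in turn, it was 1060429 and 1552769 fragments in NotoP, 454658 and 420697 in trunk notochord, and 385342 and 2186856 in MP. The cultures had 27904110 (NMPdiff), 20539860 (NotoPdiff) and 23002770 (MPdiff). A single fragment on a 2 kb transcript was therefore worth 0.0179 FPKM in NMPdiff and 1.19 FPKM in trunk notochord at E9.5. The E8.5 MP library was the shallowest, came from the fewest sorted cells and listed 13945 genes at 0, and counts of the 50 genes in comparisons with MP are given for E9.5 alone as well. By the study's list, both trunk notochord libraries also came from fewer sorted cells than either NotoP library. Intervals are 95% counting intervals and are approximate for the 23 genes with several transcripts. They cover counting error of fragments only, and not the sampling of few cells.

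Markers of the sorted populations were read first, and the leading gene of a list is the one with the highest mean over the 9 libraries. The 6 notochord genes (*T*, *Noto*, *Foxa2*, *Shh*, *Chrd*, *Nog*) summed to 1391 and 1180 FPKM in NotoP, 1049 and 1136 in trunk notochord, 76.1 and 163 in MP, 421 in NMPdiff, 592 in NotoPdiff and 29.1 in MPdiff. Reporters of *T* and *Noto* were used to sort all populations and that of *Foxa2* the embryonic ones, while *Foxa2* was induced in NotoPdiff. *T* led the list, though *Shh* exceeded it in trunk notochord at 468 and 607 FPKM against 398 and 424, *Noto* was listed at 0 in both MP libraries and in MPdiff, and *Chrd* was listed at 0 in trunk notochord at E9.5. The 4 paraxial progenitor genes, led by *Dll1* on this mean but by *Msgn1* or *Pcdh8* in several libraries, summed to 117 and 105 FPKM in NotoP, 5.48 and 4.48 in trunk notochord, 144 and 304 in MP, and 87.0, 75.4 and 153 in NMPdiff, NotoPdiff and MPdiff. *Tbx6* and *Msgn1* were listed at 0 in both trunk libraries and present in all 7 others, while *Pcdh8* was at 1.27 and 0.162 FPKM in NotoP and at 3.55 and 4.48 in trunk notochord.

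Markers of other cell types followed. All 5 blood genes were listed at 0 in the 6 embryonic libraries, and their sum was 0.407 FPKM in NMPdiff, 0.572 in NotoPdiff and 0.545 in MPdiff, led by *Hbb-y*. The 5 endothelial genes, led by *Kdr*, had 4 members at 0 in each embryonic library and summed to 0.346, 0.162, 0.403, 1.67, 0.952 and 0.229 FPKM in NotoP, trunk notochord and MP, E8.5 before E9.5, then 0.779, 0.101 and 3.34 in NMPdiff, NotoPdiff and MPdiff. In the same order the 5 somite genes, led by *Meox1*, summed to 18.9, 18.8, 49.7, 19.9, 42.9, 29.2, 0.514, 6.64 and 17.1 FPKM. *Meox2* was listed at 0 in NotoP and trunk notochord. The 5 neural tube genes, led by *Sox2*, summed to 18.9, 11.0, 32.3, 16.4, 1.99, 4.57, 5.78, 10.1 and 4.54 FPKM, with *Olig2* at 0 in NotoP and trunk notochord.

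The 5 pluripotency genes, led by *Pou5f1*, summed to 306 FPKM in NMPdiff, 14.0 in NotoPdiff and 15.1 in MPdiff, to 0.869 and 0.923 in NotoP and MP at E9.5, and were all listed at 0 in the 4 other embryonic libraries. The 5 gut endoderm genes, led by *Cdh1* on the mean but by *Cldn6* or *Epcam* in both NotoP and both MP libraries, in trunk notochord at E9.5 and in NotoPdiff, summed to 98.3 and 35.4 FPKM in NotoP, 92.2 and 40.4 in trunk notochord, 42.5 and 5.06 in MP, and 221, 257 and 28.0 in NMPdiff, NotoPdiff and MPdiff, with *Sox17* at 0 in NotoP and MP at E9.5 and in both trunk libraries. The 4 neuromesodermal genes, led by *T*, summed to 1053, 862, 421, 442, 126 and 222 FPKM in NotoP, trunk notochord and MP, and to 452, 443 and 83.4 in the cultures. *T*, also in the notochord list, gave most of the sum in NotoP (909 and 744 FPKM) and NMPdiff (406). The others went different ways. *Nkx1-2* was at 0.496 and 0.338 FPKM in NotoP and 41.5 in NMPdiff. *Sox2* was at 17.3 and 10.5 against 1.065, and *Cdx2* at 126 and 107.5 against 3.49. None of 15 housekeeping genes was at 0 in any library, and their sum was 6894 FPKM in trunk notochord at E9.5 and 9412 or more in each other library, with *Eef1a1* the most abundant. What part any of these marker levels had in the differences below was not tested.

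The cell cycle genes were expressed in every library. For E8.5 and E9.5 in turn, here and in the lists of values below, their summed level was 2017 and 2378 FPKM in NotoP, 2537 and 2604 in trunk notochord, 3215 and 2712 in MP, 2685 in NMPdiff, 2116 in NotoPdiff and 2424 in MPdiff. NotoP was the lowest of the embryonic groups at both stages and NotoPdiff the lowest of the cultures. In bulk samples such as these, fewer cycling cells and less RNA per cell cannot be told apart. Values of 0 were few and belonged to *Cdkn2c* in all 6 embryonic libraries, *Cdkn1b*, *Cdkn2d* and *Cdc25b* in MP at E8.5, and *E2f2* in NotoP at E8.5.

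**Figure D1:**
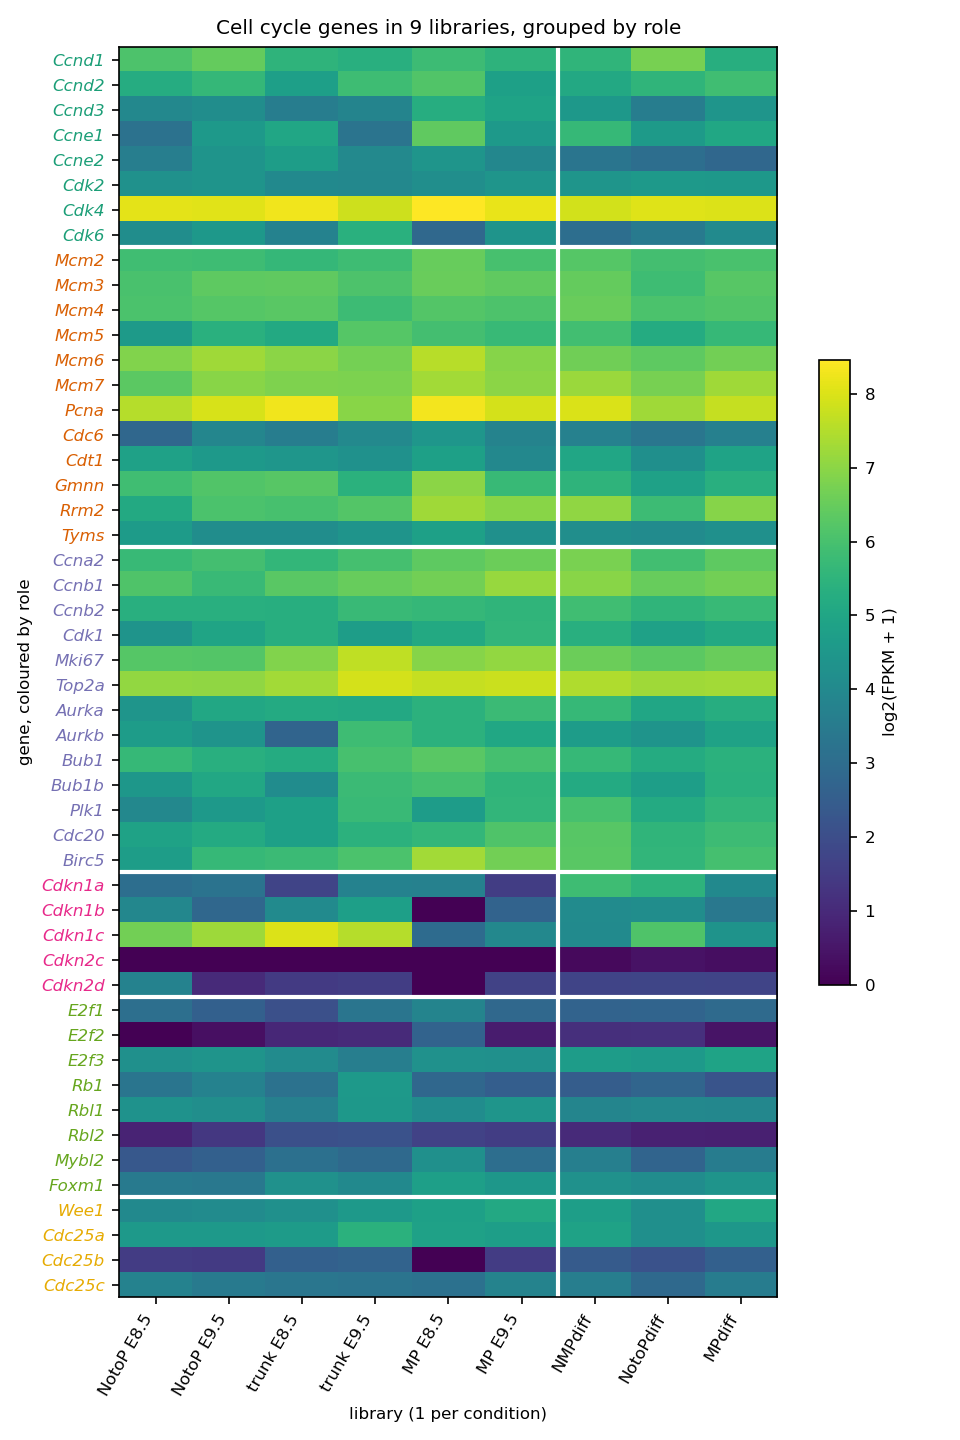
Heatmap of log2(FPKM + 1) for the 50 genes (rows, coloured and grouped by role) in the 9 libraries (columns, 1 per condition). The vertical line separates embryonic from cultured libraries, and *Cdkn1c* stands out with 99.5 FPKM or more in NotoP and trunk notochord against 14.4 or less in MP.

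Among the G1 genes the kinase *Cdk4*, partner of the D-type cyclins, was the most abundant, at 275 and 273 FPKM in NotoP, 314 and 228 in trunk notochord, 353 and 289 in MP, 235 in NMPdiff, 264 in NotoPdiff and 258 in MPdiff. Its highest and lowest values came from E8.5 MP and E9.5 trunk notochord. *Ccnd1*, which encodes the cyclin D1 that couples growth signals to G1, was at 68.1 and 86.9 FPKM in NotoP, 44.0 and 39.4 in trunk notochord, 55.4 and 43.6 in MP, 46.0 in NMPdiff, 106 in NotoPdiff and 38.5 in MPdiff. Both NotoP libraries and NotoPdiff were the highest, with no overlap of values with the other groups. The intervals of NotoP (60.1 to 76.7 FPKM) and MP (43.8 to 69.0) at E8.5 did overlap. *Ccnd2*, a second D-type cyclin, was at 37.3 and 49.2 FPKM in NotoP, 26.3 and 55.6 in trunk notochord, 70.2 and 27.2 in MP, 33.9 in NMPdiff, 46.0 in NotoPdiff and 57.4 in MPdiff, so that the groups overlapped and the stages of MP and trunk notochord went opposite ways. *Ccnd3* was at 14.5 and 16.7 FPKM in NotoP, 11.1 and 13.2 in trunk notochord, 38.0 and 29.4 in MP, 22.0 in NMPdiff, 11.2 in NotoPdiff and 20.4 in MPdiff, so it was low in every notochord-type library. *Ccne1*, the cyclin E that drives entry into S phase with *Cdk2*, spanned 8.20 FPKM in NotoP at E8.5 to 83.6 in MP at E8.5, and *Cdk2* was at 18.3 and 19.8 in NotoP, 15.4 and 14.5 in trunk notochord, 17.0 and 20.4 in MP, 20.5 in NMPdiff, 22.5 in NotoPdiff and 21.7 in MPdiff. *Cdk6*, the other D cyclin kinase, spanned 6.30 to 40.4 FPKM and *Ccne2* 6.05 to 25.2, both with their highest value in trunk notochord.

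S phase genes were led by *Pcna*, the sliding clamp of the replicative polymerases, at 181 and 245 FPKM in NotoP, 309 and 123 in trunk notochord, 319 and 242 in MP, 255 in NMPdiff, 154 in NotoPdiff and 212 in MPdiff. Trunk notochord at E9.5 was the lowest and NotoPdiff came next. *Mcm7*, a subunit of the replicative helicase, was at 79.9 and 124 FPKM in NotoP, 112 and 110.1 in trunk notochord, 156 and 128 in MP, 144 in NMPdiff, 105 in NotoPdiff and 154 in MPdiff. Its partner *Mcm6* was at 116 and 150.5 FPKM in NotoP, 127 and 102 in trunk notochord, 189 and 120.0 in MP, 97.2 in NMPdiff, 82.0 in NotoPdiff and 101 in MPdiff. The groups overlapped for *Mcm7*. For *Mcm6* all cultures were below all embryonic libraries, but NMPdiff and MPdiff lay within the interval of trunk notochord at E9.5 (85.6 to 122 FPKM). The highest values of *Mcm7* and *Mcm6* were 1.95 and 2.30 times the lowest. *Rrm2*, the regulated subunit of ribonucleotide reductase, was at 34.2 and 66.5 FPKM in NotoP, 62.5 and 73.1 in trunk notochord, 152 and 123 in MP, 134 in NMPdiff, 54.6 in NotoPdiff and 122 in MPdiff. Both MP libraries, NMPdiff and MPdiff were high, and all notochord-type libraries were low, with no overlap. *Cdt1*, which loads the helicase, was at 27.6 and 22.6 FPKM in NotoP, 21.1 and 18.4 in trunk notochord, 27.2 and 14.6 in MP, 31.0 in NMPdiff, 17.5 in NotoPdiff and 28.8 in MPdiff, with the groups overlapping. *Mcm2*, *Mcm3* and *Mcm4*, of the same helicase, had means of 63.4, 76.7 and 71.4 FPKM, and *Tyms*, which makes thymidylate, 19.3 FPKM.

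Genes of G2 and mitosis were led by *Top2a*, the topoisomerase that untangles sister chromosomes, at 137 and 133 FPKM in NotoP, 157 and 241 in trunk notochord, 211 and 222 in MP, 174 in NMPdiff, 152 in NotoPdiff and 157 in MPdiff. *Mki67*, a proliferation marker that coats mitotic chromosomes, followed at 74.2 and 72.9 FPKM in NotoP, 115 and 200 in trunk notochord, 121 and 136 in MP, 94.5 in NMPdiff, 78.8 in NotoPdiff and 91.5 in MPdiff. For both genes the NotoP libraries were the lowest of all 9. *Ccnb1*, the mitotic cyclin B1, was at 68.8 and 52.0 FPKM in NotoP, 77.9 and 90.3 in trunk notochord, 99.7 and 142 in MP, 124 in NMPdiff, 89.5 in NotoPdiff and 101 in MPdiff. *Plk1*, a kinase of mitotic entry and spindle assembly, was at 14.6 and 22.8 FPKM in NotoP, 51.8 in trunk notochord at E9.5, 24.7 and 47.1 in MP, 62.5 in NMPdiff, 35.4 in NotoPdiff and 46.1 in MPdiff. At E8.5 its trunk level was 1.85 times that of NotoP. Both genes were lowest in NotoP at each stage. Among the others *Ccnb2*, *Aurka* and *Cdc20* had means of 46.5, 37.4 and 47.5 FPKM.

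Summed by role, the 13 mitosis genes reached 576 and 621 FPKM in NotoP, 675 and 1038 in trunk notochord, 1049 and 1094 in MP, 973 in NMPdiff, 693 in NotoPdiff and 827 in MPdiff. The 12 S phase genes summed to 738 and 961 FPKM in NotoP, 981 and 757 in trunk notochord, 1333 and 974 in MP, 1050 in NMPdiff, 684 in NotoPdiff and 947 in MPdiff. The ratio of the mitosis sum to the S phase sum was 0.781 and 0.646 in NotoP, 0.688 and 1.37 in trunk notochord, 0.787 and 1.12 in MP, 0.927 in NMPdiff, 1.01 in NotoPdiff and 0.873 in MPdiff. It was thus above 1 in trunk notochord and MP at E9.5 and in NotoPdiff, and lowest in NotoP at E9.5. With geometric means in place of sums NMPdiff also came out above 1, at 1.01, and the lowest library was trunk notochord at E8.5, at 0.702, below NotoP at E9.5, at 0.721.

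Among the CDK inhibitors the highest mean was that of *Cdkn1c*, which encodes p57Kip2 and lies at chr7:143458339-143461050 on the minus strand of GRCm38. It was at 99.5 and 148.5 FPKM in NotoP, 256 and 185 in trunk notochord, 6.82 and 14.4 in MP, 15.7 in NMPdiff, 69.7 in NotoPdiff and 19.5 in MPdiff. Every notochord-type library was above every other library, with NotoPdiff the lowest of them and trunk notochord the highest. *Cdkn1a*, the p53 target p21, was at 7.41 and 8.43 FPKM in NotoP, 2.30 and 12.4 in trunk notochord, 12.2 and 1.92 in MP, 55.9 in NMPdiff, 43.0 in NotoPdiff and 15.3 in MPdiff. All cultures were above all embryonic libraries. The MPdiff value still lay within the intervals of trunk notochord at E9.5 (5.96 to 22.85 FPKM) and MP at E8.5 (5.58 to 23.18). *Cdkn1b*, p27Kip1, was at 14.1 and 6.16 FPKM in NotoP, 15.6 and 26.7 in trunk notochord, listed at 0 and 5.51 in MP, 15.8 in NMPdiff, 16.6 in NotoPdiff and 9.42 in MPdiff. At E8.5 in MP, 3 fragments of *Cdkn1b* would have read 3.24 FPKM. The INK4 members were low in every library but NotoP at E8.5, where *Cdkn2d* (p19Ink4d) was at 12.6 FPKM. *Cdkn2d* was at 1.01 FPKM in NotoP at E9.5, 1.73 and 1.87 in trunk notochord, listed at 0 and 2.16 in MP, and at 2.34, 2.38 and 2.33 in NMPdiff, NotoPdiff and MPdiff. *Cdkn2c* (p18Ink4c) was at 0.158, 0.334 and 0.256 FPKM in NMPdiff, NotoPdiff and MPdiff.

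**Figure D2:**
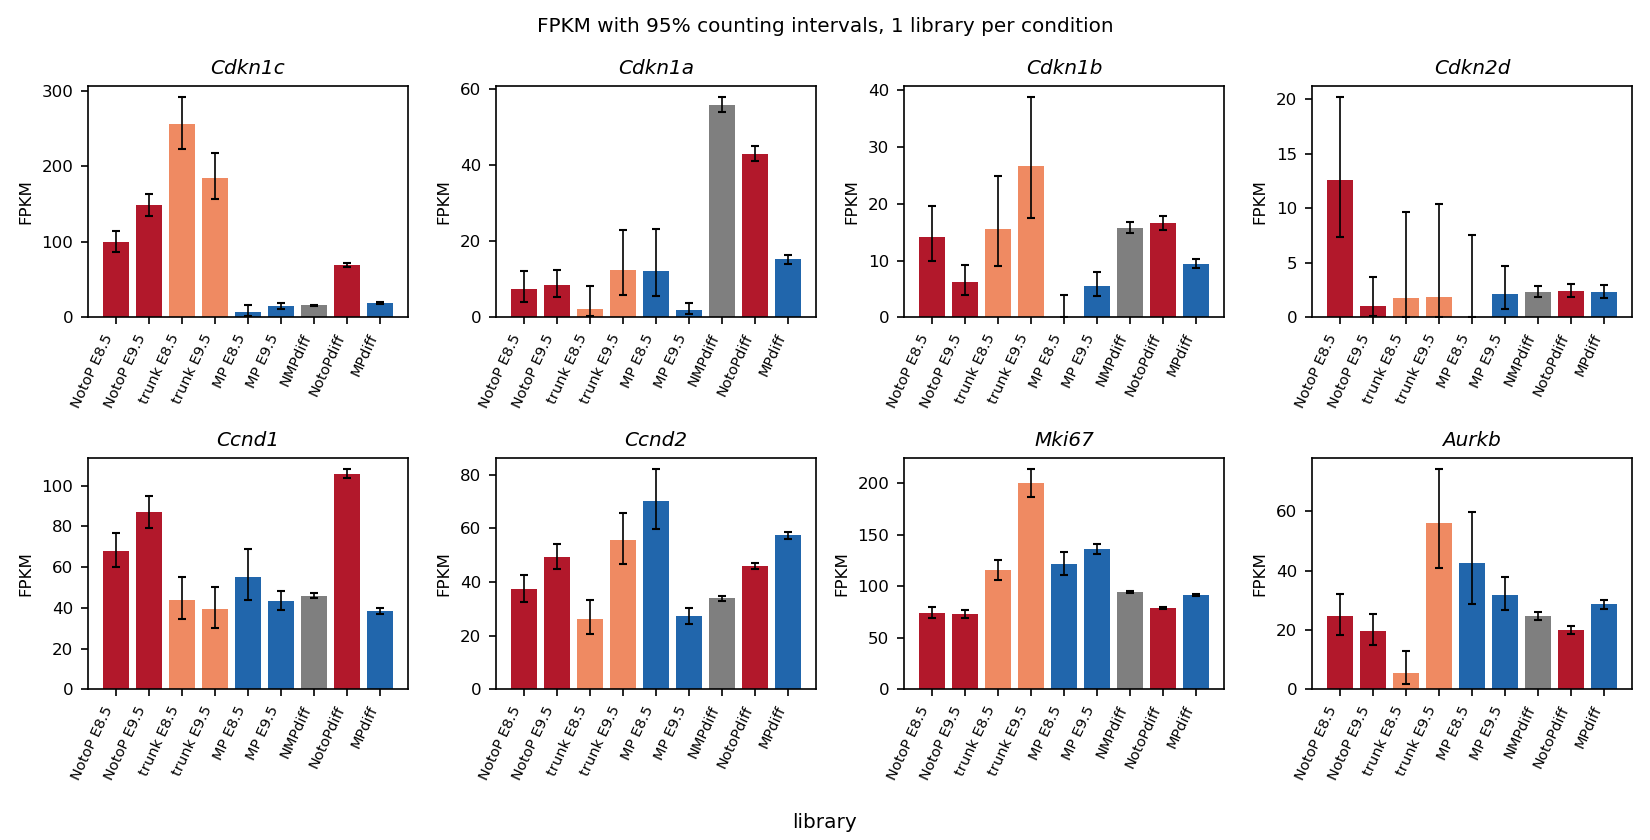
FPKM of 4 inhibitor genes and 4 further genes (vertical axes, from 0) in the 9 libraries (horizontal axis), with 95% counting intervals as error bars and bars coloured by cell type. *Cdkn1c* is highest in trunk notochord, at 256 and 185 FPKM, and *Ccnd1* is highest in NotoPdiff, at 106 FPKM.

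The Rb and E2F group was expressed at lower levels than the S phase and mitosis genes, with a sum of 107 FPKM or less in each library. Its sum was above that of the CDK inhibitors in both MP libraries and MPdiff, and below it elsewhere. *E2f3*, an activating E2F, was at 17.9 and 19.8 FPKM in NotoP, 15.8 and 11.3 in trunk notochord, 18.7 and 18.2 in MP, 24.5 in NMPdiff, 22.1 in NotoPdiff and 29.1 in MPdiff. The cultures were above the embryonic libraries, but NotoPdiff lay within the intervals of NotoP at E9.5 (16.7 to 23.4 FPKM) and MP at E8.5 (12.9 to 26.3). *Foxm1*, an activator of mitotic genes, was at 10.2 and 9.59 FPKM in NotoP, 18.6 and 15.2 in trunk notochord, 26.8 and 21.4 in MP, 18.4 in NMPdiff, 16.4 in NotoPdiff and 19.7 in MPdiff, and NotoP was the lowest at each stage. The pocket protein gene *Rbl1* (p107) was at 18.8 and 17.3 FPKM in NotoP, 12.0 and 21.9 in trunk notochord, 16.2 and 20.2 in MP, 13.4 in NMPdiff, 14.5 in NotoPdiff and 14.2 in MPdiff. *Rbl2* (p130), the pocket protein of resting cells, was lower, at 0.786 and 1.58 FPKM in NotoP, 3.21 and 3.40 in trunk notochord, 2.16 and 1.91 in MP, 1.00 in NMPdiff, 0.700 in NotoPdiff and 0.662 in MPdiff. Trunk notochord had the most *Rbl2* at each stage. *E2f2*, a further activating E2F, was listed at 0 and at 0.272 FPKM in NotoP, at 0.928 and 1.00 in trunk notochord, 5.48 and 0.579 in MP, 1.22 in NMPdiff, 1.25 in NotoPdiff and 0.376 in MPdiff. *Rb1* itself was at 23.1 FPKM in trunk notochord at E9.5 and at 12.5 or less elsewhere. Among the mitotic switch genes, the phosphatase *Cdc25a* was at 22.4 and 22.7 FPKM in NotoP, 24.3 and 41.3 in trunk notochord, 27.9 and 26.0 in MP, 28.1 in NMPdiff, 17.4 in NotoPdiff and 21.5 in MPdiff. The inhibitory kinase *Wee1* was at 15.2 and 15.8 FPKM in NotoP, 18.0 and 22.9 in trunk notochord, 27.3 and 33.2 in MP, 25.7 in NMPdiff, 17.6 in NotoPdiff and 32.4 in MPdiff, so NotoP and NotoPdiff were the lowest of all. *Cdc25c* was at 12.6 and 10.3 FPKM in NotoP, 9.06 and 8.57 in trunk notochord, 8.02 and 12.7 in MP, 11.2 in NMPdiff, 6.50 in NotoPdiff and 10.8 in MPdiff. *Cdc25b* was listed at 0 and at 1.81 FPKM in MP and was at 4.33, 3.34 and 4.99 in NMPdiff, NotoPdiff and MPdiff, and its values in NotoP and trunk notochord are given with the call below.

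Notochord progenitors were compared with mesodermal progenitors of the same caudal ends to ask how the cycle genes differ between the lineages. At both stages *Cdkn1c* rose and *Foxm1* fell in NotoP, and these were the only genes called the same way at each stage. That is 1 of 50 higher, where 6.50% of all genes tested were, and 1 of 50 lower, where 1.86% were, so the counts do not stand above this background, which was not matched for level. For *Cdkn1c* the ratio of NotoP to MP was 14.6 (95% interval 6.16 to 45.5) at E8.5, from 5 fragments in MP, and 10.3 (7.84 to 13.7) at E9.5, from 60 fragments. *Foxm1* had ratios of 0.380 (0.247 to 0.584) and 0.449 (0.334 to 0.596). With a pseudocount of 5 or a 3-fold rule the *Foxm1* call was lost, and with 10 fragments required in every library the *Cdkn1c* call could not be made at E8.5.

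By single stage, 12 genes fell and 5 rose in NotoP against MP at E8.5, where 15.7% of all genes fell and 26.7% rose. Those that fell included *Ccne1*, *Birc5*, *Rrm2* and *Mybl2*, with log2 differences of -3.20, -2.58, -2.12 and -1.92. Cyclin E1 drives S phase entry, survivin (*Birc5*) serves the chromosomal passenger complex, *Rrm2* supplies deoxynucleotides and *Mybl2* encodes B-Myb. The E9.5 differences of the same genes were 0.02, -0.97, -0.88 and -0.46, none of them called. At E9.5 there were 4 genes that fell, *Ccnb1*, *Foxm1*, *Plk1* and *Wee1*, and 3 that rose, *Cdkn1a*, *Cdkn1c* and *Rb1*, where 6.30% of all genes fell and 11.2% rose. *Ccnb1* fell by 1.44 on the log2 scale and *Plk1* by 1.02, while *Rb1* rose by 1.24.

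The direction of the mitosis genes was shared. All 13 were below 0 in NotoP over MP at both stages, with median log2 differences of -0.73 and -0.67, though only 3 of them reached 2-fold at the earlier stage and 2 at the later. Over all 50 genes 28 were below 0 at both stages, against 24.8% of all genes tested. At E9.5 alone, without the E8.5 libraries, 33 of 50 were below 0, against 46.9% of all genes, with 13 of 13 for mitosis and 6 of 12 for S phase. Medians of the S phase genes were -0.76 at the earlier stage and -0.01 at the later, and the difference between stages was not tested. *Rrm2* was the S phase gene farthest below 0 at both stages, with a ratio of 0.539 (0.460 to 0.629) at E9.5. The gut endoderm and neural tube sums given above were higher in NotoP than in MP at both stages. Sums of the somite and paraxial progenitor genes were lower at both, and the part of these 4 lists was not tested.

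Genes outside the 50 were read the same way, where 24.8% of all genes were below 0 at both stages, 1.86% were called lower at both and 6.50% higher. Of 30 other mitosis genes 25 were below 0 in NotoP over MP at both stages, with medians of -0.91 and -0.62, and *Kif20a*, a kinesin of cytokinesis, fell at both stages, by 1.63 and 1.09 on the log2 scale. Of 33 other replication genes 18 were below 0 at both stages, with medians of -0.57 and -0.13, and *Gins1*, of the replicative helicase, fell at both. Among 12 other inhibitors and p53 targets *Btg1*, an antiproliferative gene, was called higher at both stages, with differences of 4.41 and 1.13. It was at 53.1 and 38.45 FPKM in NotoP and at 1.555 and 16.98 in MP. The E8.5 MP value lay near that of a single fragment on a 2 kb transcript in that shallowest library. The size of the E8.5 difference is therefore uncertain. At E9.5 alone 29 of 30 other mitosis genes and 23 of 33 other replication genes were below 0, where 46.9% of all genes were. Of 6 genes that feed D cyclins and Myc activity 1 fell at both stages, *Lin28b*, a repressor of let-7, by 1.22 and 1.55.

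**Figure D3:**
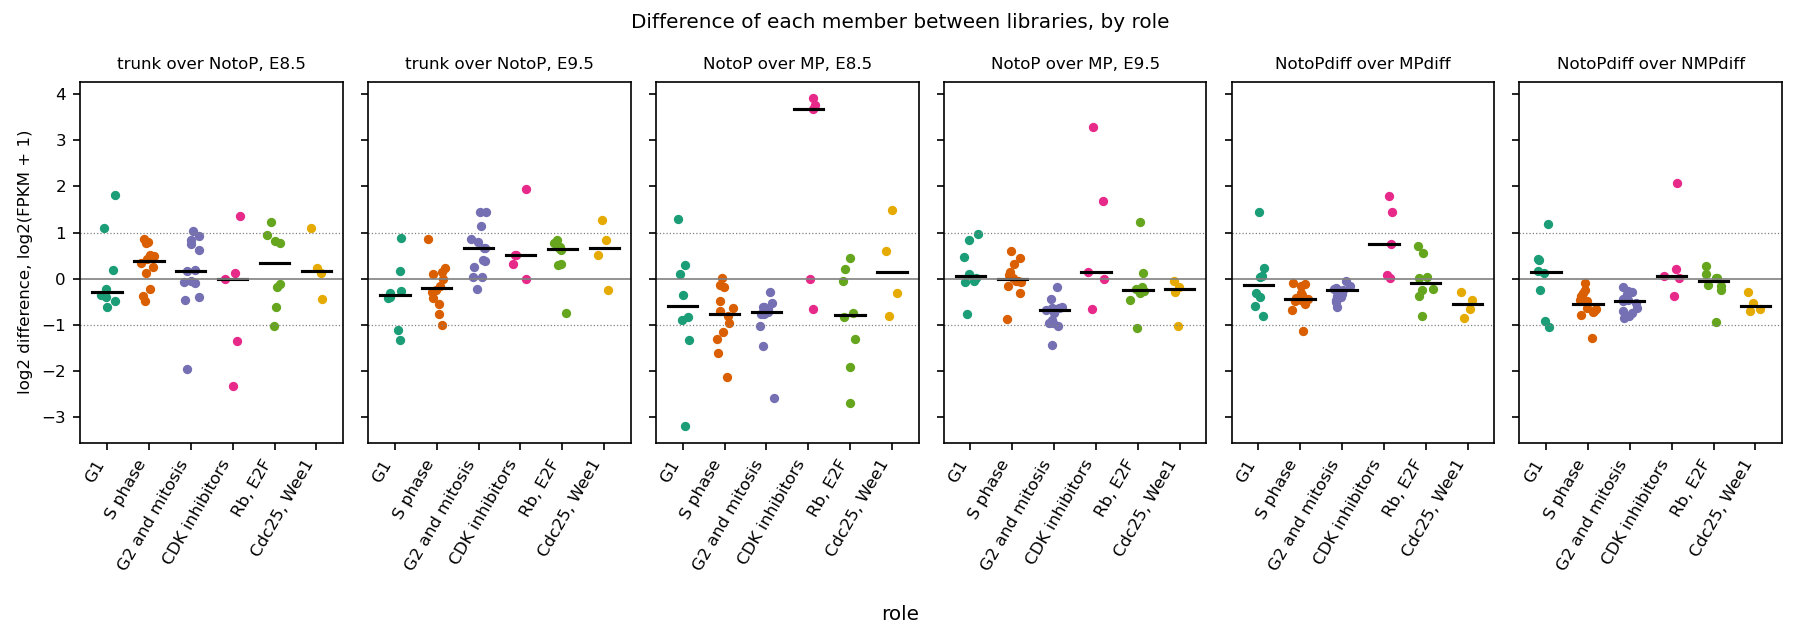
Difference in log2(FPKM + 1) of each of the 50 genes (points, vertical axis) by role (horizontal axis) in 6 comparisons, with the median of each role as a bar and the 2-fold limits dotted. The 13 mitosis genes lie below 0 in NotoP over MP at both stages, and 12 of 13 lie above 0 in trunk notochord over NotoP at E9.5.

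Trunk notochord was compared with NotoP to follow the genes from progenitor to differentiated notochord. No gene fell at both stages and 1, *Cdc25b*, rose at both, where 5.02% of all genes fell and 4.76% rose. No count stood out from this background, which was not matched for level. *Cdc25b*, a phosphatase that activates CDKs at mitotic entry, was at 1.82 and 1.70 FPKM in NotoP and 5.08 and 5.49 in trunk notochord. Its ratios were 2.79 (0.783 to 9.80) and 3.23 (0.997 to 10.2), from 6 to 8 fragments in each library, so that both intervals included 1. The call was lost with a pseudocount of 5, with a 3-fold rule, with genes of at least 5 FPKM and with 10 fragments required.

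At E8.5, 4 genes fell in trunk notochord and 6 rose, where 14.3% and 15.5% of all genes did, and at E9.5, 2 fell and 5 rose, where 18.7% and 14.4% did. *Cdkn1c* rose at E8.5, with a ratio of 2.57 (2.11 to 3.12), and had a ratio of 1.24 (1.03 to 1.51) at E9.5. *Cdkn1b* rose at E9.5, with a ratio of 4.33 (2.39 to 7.91), and had a ratio of 1.10 (0.580 to 2.01) at E8.5. *Cdkn2d* fell at E8.5 with a ratio of 0.137 (0.00328 to 0.876) from 1 fragment in trunk notochord, and *Cdkn1a* fell there with a ratio of 0.311 (0.0345 to 1.34) from 2 fragments. *Cdkn1c* and *Cdkn1b* were above 0 in trunk notochord at both stages. At E9.5 *Cdkn1a* and *Cdkn2d* were above 0 as well, with ratios of 1.48 (0.633 to 3.18) and 1.85 (0.0313 to 35.5), the latter from 1 and 2 fragments.

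The mitosis genes had medians above 0 in trunk notochord. Their median differences from NotoP were 0.18 and 0.66, and 6 of 13 were above 0 at both stages. At E8.5 alone 7 of 13 were above 0, where 49.5% of all genes were, and at E9.5 alone 12 of 13, all but *Cdk1*, where 47.7% were. *Mki67*, *Plk1* and *Aurkb* rose at E9.5, with ratios of 2.74 (2.50 to 2.99), 2.27 (1.55 to 3.30) and 2.83 (1.88 to 4.23), but *Aurkb*, the kinase of the chromosomal passenger complex, fell at E8.5, by 1.95, from 5 fragments in trunk notochord. The housekeeping sum given above was lowest in this E9.5 trunk library. The neural tube and somite sums were higher in trunk notochord than in NotoP at both stages, the somite sum only slightly at E9.5. What part these sums had was not tested. Over all 50 genes 18 were above 0 at both stages and 7 below, where 27.1% and 28.0% of all genes were. The S phase genes had medians of 0.38 and -0.20, and none of the 12 was called at either stage. *Pcna* had ratios of 1.71 (1.40 to 2.08) at E8.5 and 0.500 (0.380 to 0.649) at E9.5, with the latter just short of the 2-fold rule on the log2(FPKM + 1) scale.

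*Ccnd1* was lower in trunk notochord at both stages. It fell by 1.12 at E9.5, with a ratio of 0.454 (0.340 to 0.590), and had a ratio of 0.647 (0.493 to 0.839) at E8.5. *Ccnd3* had ratios of 0.767 (0.339 to 1.63) and 0.790 (0.374 to 1.55), and both intervals included 1. The 5 other genes below 0 at both stages were *Cdk2*, with log2 differences of -0.23 and -0.42, *Cdt1* of -0.37 and -0.28, *Cdc25c* of -0.44 and -0.24, *Mcm2* of -0.22 and -0.01, and *E2f3* of -0.17 and -0.75, none of them called. On the other side *Rbl2* had differences of 1.24 and 0.77, from 4 to 12 fragments in each library. *E2f2*, listed at 0 in NotoP at E8.5, had a ratio of 3.69 (0.268 to 50.9) at E9.5, from 2 fragments in each library. The paraxial progenitor sum of 105 FPKM or more in NotoP and 5.48 or less in trunk notochord moved with this comparison, and its part was not tested.

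Among genes outside the 50, 30 other mitosis genes had medians of 0.14 and 0.67 in trunk notochord over NotoP, with 16 of 30 above 0 at both stages, and 33 other replication genes had medians of 0.31 and -0.30, with 9 above 0 and 6 below at both, where 27.1% and 28.0% of all genes were. The 12 other inhibitors and p53 targets had medians of -0.17 and -1.19, and at E9.5 there were 7 called lower and 1 higher, where 18.7% and 14.4% of all genes were. The 7 include *Gadd45a*, *Gadd45b* and *Sesn2*, listed at 0 in this trunk library and at 1.05, 1.53 and 6.55 FPKM in NotoP. The housekeeping sum was also lowest in the same library, at 6894 FPKM, and its part was not tested. Of the 12 inhibitors and p53 targets 2 were called lower at both stages, *Bax* and *Gadd45a*, where 5.02% of all genes were. *Bax*, a proapoptotic p53 target, fell by 1.87 and 1.60 on the log2 scale. *Gadd45a*, a stress-response gene, passed the rule but was listed at 0 in both trunk libraries and was at 2.31 and 1.05 FPKM in NotoP. A single fragment on a 2 kb transcript was worth 1.10 and 1.19 FPKM in trunk notochord, so a difference was not detectable at this depth. Of the 6 D cyclin and Myc inputs 1 fell at both stages, *Mycn*, a member of the Myc family, where 5.02% of all genes fell. Its log2 differences were -2.21 and -2.82, at 34.9 and 64.2 FPKM in NotoP and 6.78 and 8.24 in trunk notochord. In the same list *Myc* rose at E8.5, by 1.61, and had a difference of 0.19 at E9.5.

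Against MP the trunk notochord had 3 genes that rose at both stages, *Cdc25b*, *Cdkn1b* and *Cdkn1c*, where 9.63% of all genes rose, and 2 that fell, *Ccnd3* and *Ccne1*, where 4.95% fell. At E9.5 alone 6 rose and 2 fell, where 18.3% and 17.5% of all genes did. *Cdkn1c* had the widest difference, with ratios of 37.6 (15.8 to 117) and 12.9 (9.44 to 17.6). *Cdkn1b* was at 15.6 FPKM in trunk notochord and listed at 0 in MP at E8.5, and had a ratio of 4.84 (2.76 to 8.47) at E9.5. *Ccnd3* had ratios of 0.292 (0.127 to 0.617) and 0.450 (0.219 to 0.833). The 3 embryonic comparisons share libraries, so their values are given side by side and no overlap between them is read.

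Between stages, 2 genes fell and 2 rose from E8.5 to E9.5 in NotoP, where 8.96% and 10.5% of all genes did, 2 fell and 8 rose in trunk notochord, where 18.3% and 14.7% did, and 6 fell and 4 rose in MP, where 12.9% and 21.9% did. In NotoP *Ccne1* and *Cdc6*, which loads the helicase at origins, rose by 1.37 and 1.06, and *Cdkn1b* and *Cdkn2d* fell by 1.08 and 2.76, the last from 17 fragments to 2, with a ratio of 0.0803 (0.00900 to 0.339). Trunk notochord gained *Aurkb* (3.10), *Cdkn1a* (2.02), *Bub1b* (1.66), *Cdk6* (1.62), *Rb1* (1.41), *Mcm5* (1.12), *Ccnd2* (1.05) and *E2f1*, while *Ccne1* and *Pcna* fell by 1.77 and 1.33. The *E2f1* ratio of 2.70 had an interval of 0.779 to 11.8 that included 1. Fragments in the shallow trunk libraries were few for *Aurkb* (5 and 46) and *Cdkn1a* (2 and 10), with ratios of 9.94 (3.97 to 32.1) and 5.40 (1.15 to 50.7). In MP all 12 S phase genes were below 0, with a median of -0.45, where 42.8% of all genes were below 0, and this comparison rests on the E8.5 MP library.

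In culture, NotoPdiff was compared with MPdiff of the same day to see what accompanies *Foxa2* induction and *Noto* activity. *Cdkn1c*, *Ccnd1* and *Cdkn1a* rose in NotoPdiff, 3 of 50 where 7.33% of all genes rose, and *Rrm2* fell, 1 of 50 where 2.54% fell. Neither count was far from this background, which was not matched for level. The ratios were 3.56 (3.30 to 3.85) for *Cdkn1c*, 2.75 (2.64 to 2.86) for *Ccnd1*, 2.81 (2.57 to 3.08) for *Cdkn1a* and 0.448 (0.427 to 0.470) for *Rrm2*. At this depth the counting intervals are narrow, and variation between cultures was not measured. *Wee1* and *Ccnd3* were next below *Rrm2*, with differences of -0.85 and -0.82, short of the rule. With a 3-fold rule *Cdkn1c* was the only one of the 50 called, and *Rrm2* was not.

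Differences of the mitosis and S phase genes had a common sign. In NotoPdiff over MPdiff 37 of 50 genes were below 0, against 47.6% of all genes, and these included 13 of 13 mitosis genes and 12 of 12 S phase genes, with medians of -0.25 and -0.44. *Top2a* was the closest to 0 at -0.04, and none of the mitosis genes was called. Of other genes, 29 of 33 for replication and 25 of 30 for mitosis were below 0, with medians of -0.46 and -0.30. Of the 6 D cyclin and Myc inputs 3 fell, *Hmga2*, *Myc* and *Mycn*, by 2.41, 2.29 and 1.43, where 2.54% of all genes did. The gut endoderm sum of 257 FPKM in NotoPdiff and 28.0 in MPdiff, given above, moved with this comparison, and its part was not tested.

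Against NMPdiff, sorted a day earlier, NotoPdiff had *Ccnd1* and *Cdkn1c* higher, 2 of 50 where 6.53% of all genes rose, and *Ccne1* and *Rrm2* lower, 2 of 50 where 4.36% fell. The log2 differences were 1.19 and 2.08, and -1.05 and -1.28, and of these *Cdkn1c* alone passed a 3-fold rule. Again 37 of 50 were below 0, against 49.2% of all genes, with 13 of 13 mitosis genes and 12 of 12 S phase genes and medians of -0.49 and -0.55. *Cdkn1a* had a difference of -0.37. MPdiff against NMPdiff had 1 gene lower, *Cdkn1a* at -1.81, where 6.12% of all genes fell, and 1 higher, *Cdk6*, a D cyclin partner, at 1.00, where 3.94% rose. Its mitosis and S phase medians were -0.26 and -0.15. The 3 culture comparisons share libraries, and the pluripotency sum of 306 FPKM was found in NMPdiff.

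Cultured and embryonic cells were set side by side with platform confounded. Against NotoP of each stage, NotoPdiff had *Cdkn1a* higher, where 5.19% of all genes rose, and *Gmnn*, the inhibitor of licensing, lower, where 3.71% fell. *Cdkn1a* had ratios of 5.81 (3.52 to 10.4) and 5.10 (3.45 to 7.92), and *Gmnn* of 0.490 (0.374 to 0.652) and 0.396 (0.321 to 0.491). The medians over all 50 were 0.18 and -0.06. Against trunk notochord of each stage, NotoPdiff had *Ccnd1* and *Cdkn1a* higher, where 7.46% of all genes rose, and *Cdkn1c* and *Rbl2* lower, where 4.99% fell. For *Cdkn1c* the ratios were 0.272 (0.237 to 0.314) and 0.377 (0.319 to 0.447), and for *Ccnd1* the log2 differences were 1.25 and 1.40.

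MPdiff against MP of each stage had *Cdc25b* higher, where 5.37% of all genes rose, and *Ccne2*, a second E-type cyclin, lower, where 2.31% fell. Against MP at E9.5 alone 3 rose and 1 fell, where 8.23% and 5.36% of all genes did. *Cdc25b* was at 4.99 FPKM in MPdiff, listed at 0 in MP at E8.5 and had a ratio of 2.75 (1.55 to 5.37) at E9.5. Of the 12 other inhibitors and p53 targets 3 were called higher in NotoPdiff than in NotoP of each stage. These were *Ccng1*, *Cdkn2a* and *Gadd45a*, where 5.19% of all genes were called higher. *Cdkn2a*, which encodes p16Ink4a and p19Arf, was listed at 0 in all 6 embryonic libraries and was at 4.84, 9.87 and 4.68 FPKM in NMPdiff, NotoPdiff and MPdiff. *Ccng1*, a p53 target, was at 45.4 FPKM or less in the embryonic libraries and at 82.9, 135 and 74.1 FPKM in the cultures.

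Peak lists for T (6875 peaks) and Foxa2 (22684 peaks) came from unsorted cultures enriched for NotoPdiff cells and were searched for summits within 5000 bases of any annotated transcript start of a gene, and distances are to the nearest of these. T had a summit near 3 of the 50 genes (6%, against 10.7% of 11400 genes tested), *Cdc25b*, *Birc5* and *Cdkn1b*, and Foxa2 near 2 (4%, against 18.5%), *Bub1* and *Mcm7*. *Cdkn1c* and *Ccnd1* had none of either. Within 1000 bases T had a summit near 1 gene, *Cdc25b* (2%, against 5.83% of genes tested), and Foxa2 near the same 2 (4%, against 5.08%). The T summit of *Cdc25b* lay 897 bases before its start, inside the *Spef1* gene on the other strand and outside its exons, with a fold enrichment of 8.40. Those of *Birc5* and *Cdkn1b* lay 1232 and 3515 bases before the start, outside any annotated gene, with fold enrichments of 6.47 and 5.40. Foxa2 summits lay 917 bases after the start of *Bub1*, within the gene and outside its exons, and 15 after an alternative start of *Mcm7*, in an exon and downstream of the gene's first start, with fold enrichments of 4.96 and 4.53.

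The 60 bases around each of the 3 T summits are printed to show the bound regions nearest to the genes, on the plus strand of GRCm38.p6 and credited to RefSeq. Capitals mark GGTGTGA or its reverse complement TCACACC, a core of T binding sequences, which 6.70% of T peaks held in the same 60 bases. Only the *Birc5* region held it (chr11:117847989-117848048), while those of *Cdc25b* (chr2:131186022-131186081) and *Cdkn1b* (chr6:134916856-134916915) did not.
Birc5 T summit: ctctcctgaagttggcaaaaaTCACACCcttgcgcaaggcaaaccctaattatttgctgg
Cdc25b T summit: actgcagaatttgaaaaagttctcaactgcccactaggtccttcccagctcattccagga
Cdkn1b T summit: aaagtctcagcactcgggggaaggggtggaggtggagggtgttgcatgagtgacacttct

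Promoters of the genes, from 250 bases before to 50 after the start, were searched on both strands for the sequences known from cell cycle promoters. The table held 38 of the 50 genes. The 12 without an entry were *Ccnd1*, *Ccnd2*, *Ccne2*, *Mcm4*, *Gmnn*, *Ccna2*, *Aurkb*, *Cdkn1c*, *Rb1*, *Foxm1*, *Wee1* and *Cdc25c*. The E2F letters TTTCCCGC, TTTCGCGC, TTTGCCGC and TTTGGCGC were present in 12 of 38, with 6 of 10 for S phase and 1 of 11 for mitosis, where 2.61% of 27025 genes and 5.03% of the tested genes held them. TTTGAA, known as the CHR, was present in 12 of 38, with 8 of 11 for mitosis and 1 of 10 for S phase, against 20.2% of all genes and 14.0% of those tested. CCAAT was present in 26 of 38 and in 10 of 11 mitosis genes, against 41.1% and 43.5%. Both TTTGAA and CCAAT were found together in 8 of 11 mitosis promoters, against 5.83% of tested genes. With only the 150 bases before the start searched, which drops the bases after it as well, E2F letters were found in 8 of 38 promoters, with 3 of 10 for S phase, against 2.80% of tested genes. TTTGAA was then found in 7, with 4 of 11 for mitosis, against 6.49%, and CCAAT in 23, with 10 of 11 for mitosis, against 32.6%.

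Promoter sequences of 5 genes are printed, 3 of mitosis with TTTGAA and CCAAT and 2 of S phase with E2F letters, each ending at the base before the RefSeq start on the gene's strand (GRCm38.p6). The annotation begins *Cdk1* and *Cdc20* earlier, so the last 26 and 9 bases of their windows lie in its exons. These bases hold the second TTTGAA of *Cdk1* and the second CCAAT of *Cdc20*. Capitals mark matches on either strand. The windows are Cdk1 (chr10:69352913-69353052, minus strand), which held all 3 kinds, Cdc20 (chr4:118437344-118437403, minus), Top2a (chr11:99024190-99024289, minus), Mcm5 (chr8:75109349-75109508, plus) and Mcm6 (chr1:128359706-128359823, minus). E2F letters of both strands overlap in Mcm5 and Mcm6 and run together there. A match describes the letters and shows no binding.
Cdk1 promoter: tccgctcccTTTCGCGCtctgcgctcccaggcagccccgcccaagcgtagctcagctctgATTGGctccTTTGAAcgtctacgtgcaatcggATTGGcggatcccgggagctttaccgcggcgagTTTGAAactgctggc
Cdc20 promoter: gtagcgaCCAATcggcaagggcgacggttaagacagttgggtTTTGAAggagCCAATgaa
Top2a promoter: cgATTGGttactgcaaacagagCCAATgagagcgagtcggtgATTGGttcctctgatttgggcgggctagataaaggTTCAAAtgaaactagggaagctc
Mcm5 promoter: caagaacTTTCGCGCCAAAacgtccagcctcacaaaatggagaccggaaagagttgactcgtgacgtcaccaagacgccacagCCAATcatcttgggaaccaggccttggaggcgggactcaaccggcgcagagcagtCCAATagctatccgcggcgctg
Mcm6 promoter: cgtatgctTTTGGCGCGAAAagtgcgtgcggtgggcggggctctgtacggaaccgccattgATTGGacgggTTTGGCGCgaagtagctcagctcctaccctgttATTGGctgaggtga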

How the data were processed

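RNA was sequenced from 9 sorted populations with 1 library each, of 21 samples in the series. Accessibility and histone libraries were not analysed here. The authors trimmed and mapped reads to mm10 with TopHat2 2.1.1 and Bowtie 1.2.2 as a stranded library, removed duplicates by molecular identifier with NuDup, and deposited FPKM from Cufflinks 2.2.1. The deposited peak lists, made by the authors with Bowtie 1.3.1 and MACS3 3.0.0b1 at a q-value cutoff of 0.1, give the fold enrichment at the summit as a ratio. They also give the deposited −log10 of q, which was used for a stricter cutoff.

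Differences were computed as log2(FPKM + 1) and called at 2-fold, beside 11922 genes that averaged 1 FPKM or more. Each condition had 1 library, and no test was made. Fragments were recovered from FPKM and transcript length, and exact intervals of ratios cover counting error only. The recovery was tested on simulated data at about the depth of each library. The fold rule was tested only at the depths of MP and NotoP at E9.5, on genes of at least 5 FPKM. It was not tested at the depth of the trunk or E8.5 MP libraries. Values in every library were given for the 3 genes of each role with the highest mean, all 5 CDK inhibitors, the 5 genes farthest apart in each direction between trunk notochord and NotoP at both stages, and the 3 in each direction between NotoPdiff and MPdiff, except that *Plk1* in trunk notochord at E8.5 is given as a ratio. All 50 genes are named, and further genes were named after their values were seen.

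The genes and all lists were chosen with earlier results of these data known. Alternatives changed the pseudocount, fold, scaling, filter on low values, stages, weighting, peak distance, q cutoff and promoter window. The minimum of 10 fragments, the counts of signs and the letters at summits were added after seeing the data. Calculations used Python 3.11.15, pandas 2.3.3, numpy 2.4.6, scipy 1.17.1 and pysam 0.24.0, and plots matplotlib 3.10.9.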

Additional observations from a re-analysis of the deposited data

Results flagged for a closer look

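For 4 genes a difference was called in opposite directions at the 2 stages, and the change between stages was not tested, since each stage had 1 library per group. In trunk notochord over NotoP, *Ccne1* rose by 1.82 on the log2 scale at E8.5 and fell by 1.32 at E9.5, a change of -3.14 between stages. In the same comparison *Aurkb* fell by 1.95 at E8.5 and rose by 1.45 at E9.5, a change of 3.405. In trunk notochord over MP, *Ccnd2* fell by 1.38 at E8.5 and rose by 1.01 at E9.5, a change of 2.39. There *Cdkn1a* fell by 2.00 at E8.5 and rose by 2.21 at E9.5, a change of 4.21. Some of these calls rest on few fragments. *Ccne1* had 7 in trunk notochord at E9.5, with a ratio to NotoP of 0.37 (0.15 to 0.81). *Aurkb* had 5 in trunk notochord at E8.5, and *Cdkn1a* had 2 and 10 in trunk notochord and 9 and 8 in MP.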

How the results depend on the processing

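Counts of called genes moved with the fold and the stages used. Of 64 alternatives to the 8 counts, 37 stayed within 1.5 times. Genes lower in trunk notochord than NotoP at both stages numbered 0, and 1 with a 1.5-fold rule, 4 at E8.5 alone and 2 at E9.5 alone. Genes higher there numbered 1, and 3 with a pseudocount of 0.1, 6 with a 1.5-fold rule, 6 at E8.5 alone and 5 at E9.5 alone. That count was 0 with a pseudocount of 5, a 3-fold rule, a mean of at least 5 FPKM, or at least 10 fragments. Genes lower in NotoP than MP numbered 1, and 14 with a 1.5-fold rule, 12 at E8.5 alone and 4 at E9.5 alone, but 0 with a pseudocount of 5 or a 3-fold rule. Genes higher in NotoP than MP numbered 1, and 5 at E8.5 alone, 3 at E9.5 alone and 0 with at least 10 fragments. Of genes lower in NotoPdiff than MPdiff there was 1, and 8 with a 1.5-fold and 0 with a 3-fold rule, and of genes higher 3, then 5 and 1. Against NMPdiff 2 were lower, and 1 with a pseudocount of 5, 16 with a 1.5-fold and 0 with a 3-fold rule, and 2 were higher, and 1 with a 3-fold rule. Fold rules and stages change these counts by construction, and for the others the cause was not tested. Geometric means moved the ratio of mitosis to S phase expression in NMPdiff to 1.01 from 0.927, across 1, and made trunk notochord at E8.5 (0.702) the lowest library. The cause was not tested. Medians over the 50 genes, in 18 comparisons with 72 alternatives, changed sign in 0 and shifted by at most 0.0903. Scaling by median of ratios moved the median of all genes by at most 0.03. A fit of the embryonic libraries with stage as a block was not made. Few fragments and few sorted cells limit the trunk and E8.5 MP libraries. There 0 to 10 fragments decide calls of genes that include *Cdkn1a*, *Cdkn2d*, *Cdc25b*, *Cdkn1c*, *Aurkb*, *Ccne1*, *Rbl2* and *E2f1*.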
